A study of Homo sapiens with 4 samples.

Results

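The regions described here are 36 bins of 1 Mb, on autosomes other than chromosome 19, in which the open chromatin of TMD8 cells was on balance lower in shIRF4 libraries than in control libraries. A bin was taken when it held at least 20 accessible rows (a row is 1 merged ATAC-seq peak of the deposited count table, placed by its midpoint on hg38) and when the median over its rows of log2 (mean shIRF4 CPM + 0.5) / (mean control CPM + 0.5) was at most -0.15. CPM is a row's read count scaled to the total of the library. Bins within 5 Mb of a centromere were left out. Of 2870 bins with a row, 1148 could enter (1386 on these autosomes held too few rows, and 116 with enough rows lay near a centromere, 18 of them at or below the threshold). The 36 bins hold 1449 of the 73135 rows. In the opposite direction, 116 of the 1148 bins had a median of at least 0.15, and on chromosome 19 the threshold was met by 11 of 44 bins. The shIRF4 and control values of all 4 libraries chose the bins, so the differences between the groups in them are given as descriptions, without a test.

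Accessibility was measured by ATAC-seq, in which a transposase inserts adapters into DNA that is not wrapped around nucleosomes. TMD8 is a long-established human line from a diffuse large B cell lymphoma of the activated B cell-like (ABC) type, the cell type the labels give. The 2 control libraries received a scrambled shRNA according to the design text, and the 2 shIRF4 libraries an shRNA against IRF4. The library names say siIRF4 where the titles say shIRF4, and the titles were followed. No label gives a time after transduction or says that the libraries of a group came from separate cultures, so any spread between them may be technical. The libraries held 12152153 (control 1), 13609123 (control 2), 17954924 (shIRF4 1) and 9112860 (shIRF4 2) counts. B cell markers were accessible at their gene ends in every library (CD79B at 164, 164, 166 and 139.8 CPM in the same order), whereas 5 of 7 T cell markers, 3 of 5 myeloid markers and 4 of 6 epithelial and fibroblast markers had no row there. IRF4 RNA was not measured, and accessibility of the IRF4 gene does not show whether the shRNA worked.

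Chromatin is folded into domains that reach the megabase scale, within which enhancers contact promoters, and open regions in the same domain often change together. Promoters of widely used genes are CpG-rich and tend to stay open, while enhancers depend more on the transcription factors of a cell type. IRF4 is such a factor: it binds composite elements together with ETS or AP-1 partners and maintains the ABC program. The ends of chromosomes carry duplicated sequence in which short reads are hard to place.

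The sequences shown first are the promoters of genes on which the description turns, since rows at promoters and rows away from them are described separately. Each runs from 250 bases before to 50 bases after a RefSeq gene start on GRCh38.p14, 5′ to 3′ on the gene's strand, with every CpG in capitals. SNAP47, STK32C and WNT9A lie in bins where the promoter row was itself called lower; IRF4 and TNFAIP3 lie in bins where it was not.
SNAP47 (chr1:227728381-227728680, plus strand): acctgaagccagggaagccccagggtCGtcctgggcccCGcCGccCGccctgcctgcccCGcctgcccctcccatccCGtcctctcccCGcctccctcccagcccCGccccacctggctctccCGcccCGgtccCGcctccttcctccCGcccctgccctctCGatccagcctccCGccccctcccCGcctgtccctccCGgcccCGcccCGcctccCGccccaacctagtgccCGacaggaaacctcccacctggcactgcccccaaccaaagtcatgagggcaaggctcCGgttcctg
WNT9A (chr1:227947883-227948182, minus strand): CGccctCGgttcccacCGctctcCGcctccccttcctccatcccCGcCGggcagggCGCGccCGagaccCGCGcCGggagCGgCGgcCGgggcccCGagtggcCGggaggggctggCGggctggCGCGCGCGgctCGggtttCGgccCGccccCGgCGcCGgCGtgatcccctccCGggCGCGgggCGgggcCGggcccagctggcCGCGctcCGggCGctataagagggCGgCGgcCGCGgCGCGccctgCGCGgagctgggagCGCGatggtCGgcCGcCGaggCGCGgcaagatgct
STK32C (chr10:132249059-132249358, minus strand): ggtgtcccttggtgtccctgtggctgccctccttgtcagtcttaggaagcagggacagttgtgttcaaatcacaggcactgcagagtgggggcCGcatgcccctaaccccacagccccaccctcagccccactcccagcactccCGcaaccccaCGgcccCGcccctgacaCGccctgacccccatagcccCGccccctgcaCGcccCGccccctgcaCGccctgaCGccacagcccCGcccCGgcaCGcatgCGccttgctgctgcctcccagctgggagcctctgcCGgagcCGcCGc
IRF4 (chr6:391502-391801, plus strand): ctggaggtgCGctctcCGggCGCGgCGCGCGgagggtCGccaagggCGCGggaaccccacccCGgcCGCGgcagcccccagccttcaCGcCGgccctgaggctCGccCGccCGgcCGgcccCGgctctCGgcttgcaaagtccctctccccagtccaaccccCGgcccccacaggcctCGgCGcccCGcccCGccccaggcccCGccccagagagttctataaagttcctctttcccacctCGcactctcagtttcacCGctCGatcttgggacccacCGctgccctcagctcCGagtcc
TNFAIP3 (chr6:137867009-137867308, plus strand): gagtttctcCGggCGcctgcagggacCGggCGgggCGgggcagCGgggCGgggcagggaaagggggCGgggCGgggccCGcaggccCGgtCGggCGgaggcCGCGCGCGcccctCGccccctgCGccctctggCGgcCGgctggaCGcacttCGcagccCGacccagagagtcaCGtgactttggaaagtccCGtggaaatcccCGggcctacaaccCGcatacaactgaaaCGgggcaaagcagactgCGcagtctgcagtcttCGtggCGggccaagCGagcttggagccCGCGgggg
The windows hold 21 (SNAP47), 53 (WNT9A), 17 (STK32C), 32 (IRF4) and 35 (TNFAIP3) CpGs, beside a median of 21 over the 22198 protein-coding promoter windows of the table. Not every start of these genes is printed. Other windows under rows called lower hold 20, 45 and 35 CpGs at SNAP47 and 37 at STK32C. CpG content did not separate the called from the uncalled promoters among these.

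Motif letters were searched on both strands of the 182 protein-coding promoter windows in the 36 bins. GAAA, any 2 bases and GAAA, the letters of an interferon-stimulated response element (ISRE) that IRF proteins can bind, stood in 12 of the 182 windows (6.59%) and in 3.17% of all 22198. Of the 12 windows, 3 are alternative starts of TCF4; counted by gene, the letters stood at 10 of 133 genes (7.52%) and at 4.16% of all 15842. GGAA, any 2 bases and GAAA, an ETS-IRF composite element (EICE) that can overlap an ISRE, stood in 5 windows (2.75%) beside 2.52% of all. TGANTCA (AP-1) was in 11 windows (6.04% beside 6.15%), CAGGTG (an E-box) in 36 (19.78% beside 19.95%), and a core of the CTCF motif (CCAC, any base, AG, any base, GGGC) in 0 of 182, beside 0.30% of all. TCF4 is among the genes with ISRE letters. A pair of its starts is shown here with those letters in capitals because TCF4 is the transcription factor gene with the most rows in the 36 bins, 45.
TCF4 (chr18:55321792-55322091, minus strand): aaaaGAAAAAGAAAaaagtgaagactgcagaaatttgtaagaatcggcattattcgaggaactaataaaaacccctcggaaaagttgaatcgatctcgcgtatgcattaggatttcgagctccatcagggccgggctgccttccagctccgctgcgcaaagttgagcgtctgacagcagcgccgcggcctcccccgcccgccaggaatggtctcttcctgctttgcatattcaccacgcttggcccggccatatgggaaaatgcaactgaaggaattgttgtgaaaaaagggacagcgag
TCF4 (chr18:55588568-55588867, minus strand): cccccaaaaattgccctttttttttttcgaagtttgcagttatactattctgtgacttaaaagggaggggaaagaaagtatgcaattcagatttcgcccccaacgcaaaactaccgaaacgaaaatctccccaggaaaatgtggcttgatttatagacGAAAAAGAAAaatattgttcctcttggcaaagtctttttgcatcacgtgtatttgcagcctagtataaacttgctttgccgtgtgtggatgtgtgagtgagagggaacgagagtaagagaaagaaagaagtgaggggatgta
The rows over these windows were not called: the first had 36.5 and 37.9 CPM in controls and 40.2 and 39.1 CPM in shIRF4 libraries, and the second 21.2, 20.7, 21.9 and 21.8 CPM. A match of letters is a description of the window, not a binding site.

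Called in what follows means past an adjusted p threshold of 0.05 in edgeR's quasi-likelihood test on the whole table. Among all 73028 rows tested, 15.5% were called lower and 7.26% higher in shIRF4. Among the member rows, 1448 of 1449 passed the filter on low counts, and 562 (38.8%) were called lower and 28 (1.93%) higher. Because the same contrast chose the bins, nothing is read from that share. The median log2 ratio over member rows was -0.24, with quartiles of -0.49 and 0.03, and 72.5% of the rows lay below 0. Over the 46649 rows of the other 1112 bins the median was 0.06, and of those tested 13.5% were called lower and 7.7% higher. The rows not called in either direction had a median of -0.05 in the member bins and 0.08 in the other bins.

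**Figure D1:**
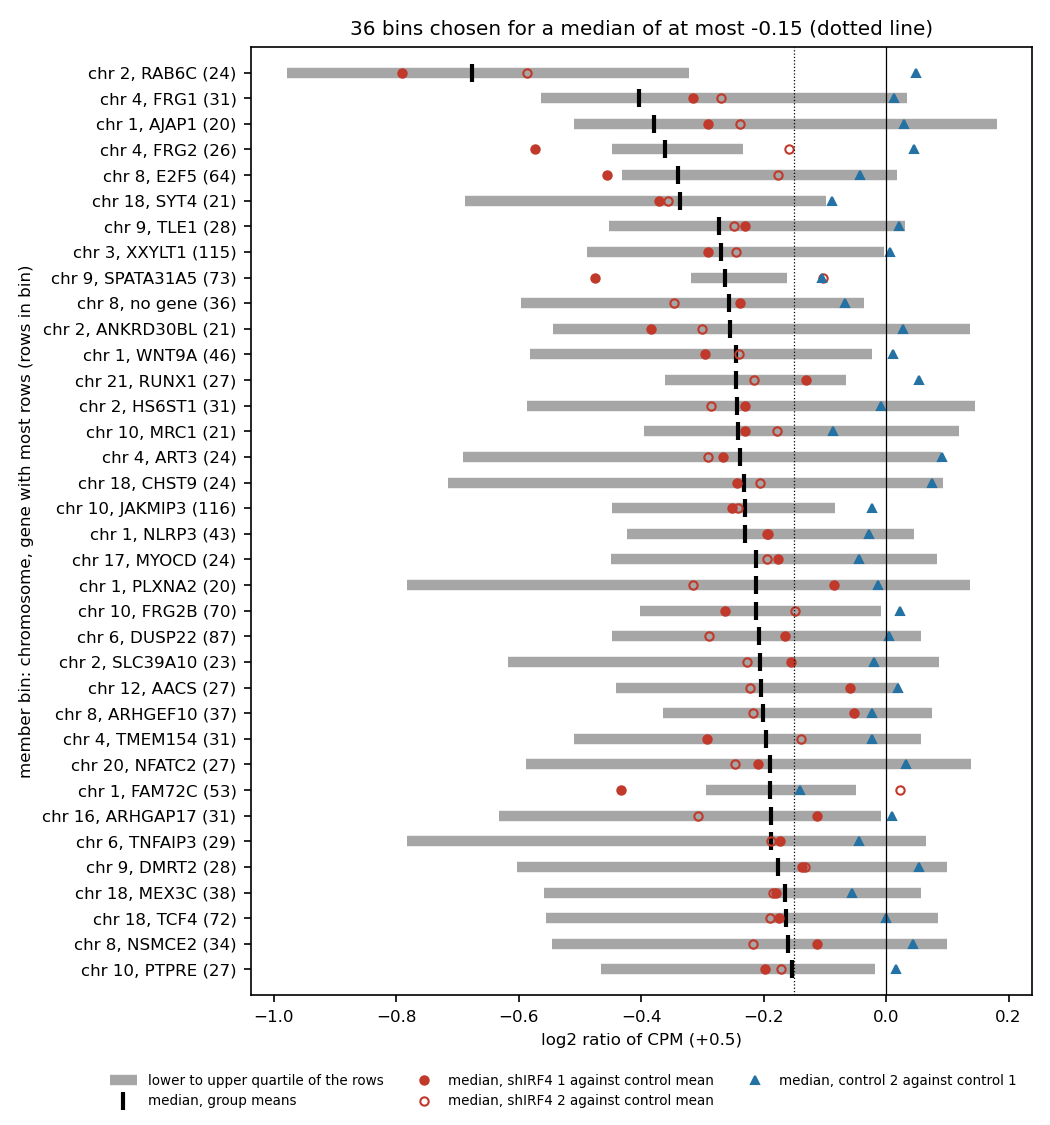
Median log2 ratio (horizontal axis) in each of the 36 bins (vertical axis, named by chromosome and the gene with most rows, with the number of rows in brackets). Grey bars run from the lower to the upper quartile of the rows, black ticks are medians over the group means, red circles are each shIRF4 library against the control mean, blue triangles are control 2 against control 1; the lowest median is -0.68, and in 13 bins the grey bar ends below 0.

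The word broad fits some of these bins and not others. In 13 of 36 bins even the upper quartile of the rows lay below 0, and in 11 of these at least 75% of the rows did; in the other 23 the upper quartile reached up to 0.18. The share of rows below 0 ran from 54.2% to 93.2% over bins. The spread of rows inside a bin was also wider than elsewhere, with a median interquartile range of 0.56 beside 0.36 in the other 1112 bins. Cut into windows of 200 kb, the 36 bins gave 91 windows with at least 5 rows. Of these, 57 had a median at or below -0.15 and 18 had a median above 0, and 12 bins held windows of both kinds. Many bins are therefore a shorter stretch of lower rows beside rows that were not lower. In 16 of the 29 bins with 2 or more such windows, all of them were below 0.

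Runs of adjacent bins were short. There were 3 runs, each of 2 bins, at 128 to 130 Mb of chromosome 2, 189 to 191 Mb of chromosome 4 and 132 to 134 Mb of chromosome 10, and the other 30 bins stood alone. Of the 33 neighbouring bins that could enter the choice and were not members, 8 had a median below 0 and 2 a median at or below -0.10. Their median of medians was 0.06, beside 0.07 over all other bins. The threshold does not mark a gap: just inside it lay the bins at 128 Mb of chromosome 10 (median -0.15, 27 rows) and 125 Mb of chromosome 8 (-0.16, 34 rows), and just outside it the first Mb of chromosome 7 (-0.14, 75 rows) and 1 Mb of chromosome 5 (-0.14, 136 rows).

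The lowest bin spans 129 to 130 Mb of chromosome 2. It has a median of -0.68 over 24 rows, 21 of them below 0 and 18 called lower with 0 called higher. Its summed accessibility was 233 and 237 CPM in controls and 127 and 142 CPM in shIRF4 libraries. RAB6C, a small GTPase gene, is the nearest protein-coding gene to only 2 of its rows, and the other 22 lie more than 100 kb from any protein-coding gene. Row peak41327 (chr2:129463679-129464648, intergenic) had 17.3 and 15.2 CPM in controls and 3.62 and 4.28 CPM in shIRF4, a log2 fold change of -2.12 ± 0.15 (SE). Row peak41320 (chr2:129379378-129380107) had 13.7, 14.0, 3.23 and 4.17 CPM in the same order (-2.00 ± 0.16). In both rows each shIRF4 library lay far under each control library. The bin's most accessible row, peak41329 (chr2:129483036-129484394), had 28.1 and 29.2 CPM in controls and 15.1 and 16.1 CPM in shIRF4 (-0.94 ± 0.09).

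The 8 rows between 129.4 and 129.6 Mb were all called lower, with a median of -0.88. The 3 rows nearest RAB6C, between 129.8 and 130.0 Mb, had a median of -0.14, with 2 below 0 and 1 called lower. Of these, row peak41340, 55897 bases from that gene, had 9.71, 10.7, 9.08 and 9.33 CPM, and it was not called. The bin before it, at 128 Mb, joins this run with a median of -0.24 over 31 rows. There HS6ST1, a heparan sulfate sulfotransferase gene, held 14 rows, of which 5 were called lower and 0 higher. SAP130, a subunit gene of the SIN3 corepressor complex, had the most accessible row of the run, at its promoter, with 84.4 and 87.4 CPM in controls and 94.1 and 95.4 CPM in shIRF4. That row lay slightly higher in both shIRF4 libraries and was not called.

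IRF4's own bin, the first Mb of chromosome 6, was a member with a median of -0.21 over 87 rows, 30 called lower and 3 higher. The IRF4 promoter row (chr6:390678-394420) had 51.3 and 55.1 CPM in controls and 55.4 and 50.6 CPM in shIRF4, so the groups overlapped. Of the 15 rows assigned to IRF4, 2 were called lower and 0 higher. The clearest of them, 23216 bases outside the gene (chr6:434659-435008), had 4.03, 4.92, 2.34 and 1.54 CPM. Most of the bin's lower rows belonged to DUSP22, the neighbouring dual-specificity phosphatase gene, with 17 of 41 rows called lower and 1 higher. Inside the DUSP22 body, the row at chr6:321755-330666 had 232 and 229.6 CPM in controls and 142 and 128 CPM in shIRF4 (-0.82 ± 0.05), while the DUSP22 promoter row had 197, 201, 198 and 181 CPM and was not called. Without shIRF4 1 that promoter row was called lower, with a log2 fold change of -0.16. EXOC2, an exocyst subunit gene on the other side of IRF4, had 7 of 20 rows called lower and 2 higher. Its lowest named row (chr6:484113-485055, 99 bases outside the gene) had 13.8, 12.9, 4.23 and 4.72 CPM (-1.65 ± 0.15). By 200 kb windows the medians were -0.31 and -0.28 from the chromosome's start to 0.4 Mb, -0.04 in the window that follows and 0.02 from 0.6 to 0.8 Mb.

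TNFAIP3 encodes A20, a ubiquitin-editing inhibitor of NF-kB that is often inactivated in ABC lymphoma. Its bin at 137 Mb of chromosome 6 had a median of -0.19 over 29 rows, and the 12 rows of TNFAIP3, all between 137.8 and 138.0 Mb, had a median of -0.79 with 7 called lower and 0 higher. The TNFAIP3 promoter row (chr6:137866567-137868348) had 25.0 and 23.9 CPM in controls and 26.0 and 26.4 CPM in shIRF4 and was not called. Outside the gene by 38496 bases, the row at chr6:137921808-137922233 had 8.64 and 8.16 CPM in controls and 1.84 and 1.76 CPM in shIRF4 (-2.26 ± 0.20). The called lower rows of TNFAIP3 thus stood beside a promoter row that was not called. The other 3 of the bin's 10 rows called lower lay between 137.0 and 137.2 Mb, where the 7 rows had a median of -0.44 and 6 were below 0. In the same bin the 5 rows between 137.4 and 137.6 Mb had a median of 0.26, with 2 called higher.

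TCF4, which encodes an E protein of the B and plasmacytoid lineages, held 45 rows of the bin at 55 Mb of chromosome 18, of which 13 were called lower and 0 higher. None of its 5 promoter rows was called. In the TCF4 body, the row at chr18:55267824-55269031 had 30.9 and 30.9 CPM in controls and 15.5 and 17.3 CPM in shIRF4 (-0.98 ± 0.09). The densest block of lower rows in the bin was intergenic: the 16 rows between 55.0 and 55.2 Mb, more than 100 kb from TCF4 and any other protein-coding gene, all lay below 0, and 14 were called lower (median -0.63). Row peak31863 there (chr18:55064473-55065515) had 40.5 and 41.4 CPM in controls and 20.7 and 28.3 CPM in shIRF4. Row peak31873 (chr18:55093001-55093794) had 8.15, 8.45, 3.95 and 4.06 CPM. At the other end of the bin the 9 rows between 55.8 and 56.0 Mb had a median of 0.19.

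NFATC2, a calcium-regulated transcription factor gene, held 22 of the 27 rows of the bin at 51 Mb of chromosome 20, with 12 called lower and 2 higher. Its body row at chr20:51460455-51461887 had 37.8 and 35.7 CPM in controls and 22.3 and 23.3 CPM in shIRF4 (-0.74 ± 0.08). A promoter row of NFATC2 (chr20:51540960-51543290) was called lower as well, with 39.8, 41.6, 35.1 and 36.1 CPM (-0.24 ± 0.07), a far smaller difference that was not called without control 2 (-0.22). RUNX1, a core factor of blood cell development, reaches into the bin at 35 Mb of chromosome 21 (median -0.25, 27 rows). Most rows of that bin lie outside the annotated gene. Row peak46339 there (chr21:35226905-35228381, intergenic) had 51.3 and 55.3 CPM in controls and 42.8 and 47.0 CPM in shIRF4. Row peak46332 stood on the other side, with 8.81, 9.04, 17.0 and 13.1 CPM, and was called higher.

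PTPRE, a receptor-type phosphatase gene, had 9 of its 17 rows in the bin at 128 Mb of chromosome 10 called lower and 0 higher. Its body row at chr10:128062375-128065633 had 104 and 108 CPM in controls and 70.0 and 67.3 CPM in shIRF4 (-0.67 ± 0.06). The promoter row of MKI67, the proliferation marker gene in the same bin, had 32.1, 32.6, 31.7 and 30.5 CPM and was not called. TLE1, a Groucho-family corepressor gene, had 7 of 24 rows called lower. A TLE1 body row (chr9:81664699-81665394) had 15.2, 15.5, 7.96 and 6.37 CPM, and the TLE1 promoter row had 63.7, 69.1, 71.5 and 63.8 CPM, with overlapping groups. NLRP3, an inflammasome sensor gene, had 8 of 14 rows called lower and 0 higher.

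A bin without any protein-coding gene within reach of its rows lies at 128 to 129 Mb of chromosome 8, downstream of MYC and at and beyond the end of the non-coding gene PVT1. Its median was -0.26 over 36 rows, with 16 called lower and 1 higher. The 23 rows between 128.0 and 128.2 Mb had a median of -0.44. Its most accessible row, peak67755, had 54.8, 49.5, 65.6 and 53.4 CPM, with overlapping groups; without shIRF4 2 it was called higher (0.27). Row peak67767 (chr8:128111743-128112657) had 15.4, 13.6, 5.68 and 7.02 CPM (-1.28 ± 0.14).

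SNAP47, a SNARE-family gene of membrane fusion, was lower throughout. All 16 of its rows, between 227.6 and 227.8 Mb of chromosome 1, lay below 0, and 14 were called lower. Summed over the gene, accessibility was 615 and 624 CPM in controls and 356 and 383 CPM in shIRF4. The row inside the gene at chr1:227744269-227746682 had 90.8 and 98.9 CPM in controls and 29.0 and 32.4 CPM in shIRF4 (-1.69 ± 0.07). The row over the SNAP47 start whose sequence is printed first (chr1:227726778-227734309) had 130 and 130 CPM in controls and 61.8 and 70.8 CPM in shIRF4 (-1.03 ± 0.07). This was the largest difference among the called promoter rows of the 36 bins. The row over the start that SNAP47 shares with JMJD4 had 55.8, 59.5, 49.1 and 47.8 CPM (-0.30 ± 0.07), and was not called without control 2 (-0.25).

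WNT9A, a Wnt ligand gene in the same bin, had 11 of 20 rows called lower and 0 higher. Its widest row (chr1:227916948-227927807) had 227 and 234 CPM in controls and 153 and 157 CPM in shIRF4 (-0.62 ± 0.05), and its promoter row 99.3, 99.1, 80.6 and 73.5 CPM (-0.41 ± 0.06). The microRNA miR-5008 lies under another lower row of WNT9A, and miR-202 under a lower row of the bin at 133 Mb of chromosome 10. Their mature sequences from RefSeq are given because these annotated microRNAs lie inside lower rows. Capitals mark the seed, bases 2 to 8, and the 4 seeds differ from each other.
hsa-miR-5008-5p (chr1:227941641-227941662, minus strand): uGAGGCCCuuggggcacagugg
hsa-miR-5008-3p (chr1:227941610-227941630, minus strand): cCUGUGCUcccagggccucgc
hsa-miR-202-5p (chr10:133247572-133247593, minus strand): uUCCUAUGcauauacuucuuug
hsa-miR-202-3p (chr10:133247538-133247557, minus strand): aGAGGUAUagggcaugggaa
The row over miR-5008 (chr1:227940707-227943354) had a log2 fold change of -0.64 and the row over miR-202 (chr10:133247059-133248675) of -0.41, both called lower. Another microRNA, miR-4453 on chromosome 4, lay under a row with a log2 fold change of 0.03 that was not called. The levels of these microRNAs were not measured.

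The largest run by rows, 132 to 134 Mb of chromosome 10, had 186 rows with a median of -0.22, of which 75 were called lower and 2 higher. Its summed accessibility was 3629 and 3615 CPM in controls and 2940 and 3048 CPM in shIRF4. JAKMIP3 had 10 of 27 rows called lower, STK32C (a serine/threonine kinase gene) 10 of 19, LRRC27 10 of 23, and PWWP2B, a chromatin reader gene, 4 of 23, each with 0 called higher. Next to JAKMIP3, at a distance of 7025 bases, the row at chr10:132028625-132029339 had 13.0 and 12.9 CPM in controls and 3.06 and 3.29 CPM in shIRF4 (-2.09 ± 0.16). The most accessible row of the run, inside LRRC27 (chr10:132350378-132354156), had 179 and 176 CPM in controls and 103 and 118 CPM in shIRF4 (-0.74 ± 0.06). In STK32C the body row at chr10:132227666-132234272 had 133, 132, 78.2 and 84.2 CPM (-0.76 ± 0.06), and the promoter row printed above 35.0, 35.0, 26.9 and 26.9 CPM (-0.43 ± 0.08). ADAM8, a cell-surface metalloproteinase gene, also had a lower promoter row, with 99.6, 98.4, 80.3 and 79.1 CPM (-0.36 ± 0.06).

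**Figure D2:**
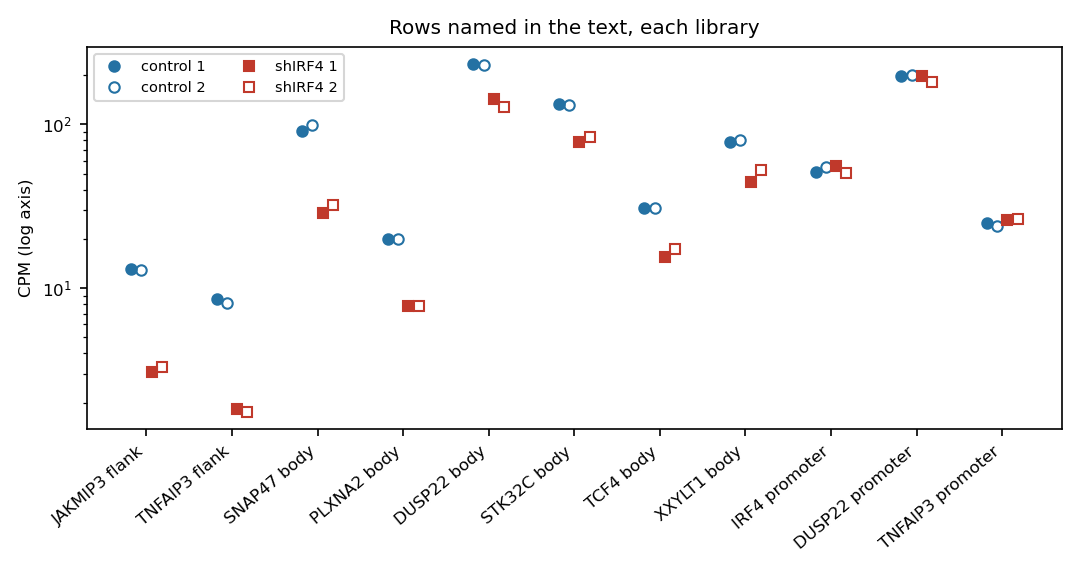
CPM on a log axis in each library (blue circles, control 1 and 2; red squares, shIRF4 1 and 2) for 8 rows called lower in gene bodies or flanks and for 3 promoter rows of the same bins. The red squares lie under the blue circles in the 8 body and flank rows, and among or just around them at the IRF4, DUSP22 and TNFAIP3 promoters. The 8 rows are those of smallest p of their genes, and the 3 promoter rows were picked and not called. Promoter rows of SNAP47 and STK32C that were called lower are not shown.

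XXYLT1, which encodes a xylosyltransferase acting on Notch, held the most rows of any gene: 24 of 51 were called lower and 0 higher, in the bin at 195 Mb of chromosome 3. Its row at chr3:195207756-195210756 had 77.5 and 79.8 CPM in controls and 44.6 and 52.3 CPM in shIRF4 (-0.76 ± 0.07). In the same bin MUC20, a mucin gene, had 7 of 17 rows called lower and 1 higher, and TNK2, a kinase gene, 4 of 18 and 0. TFRC, the transferrin receptor gene, had 2 rows here and neither was called. Of the smaller bins, that of AJAP1, an adherens junction gene at 4 Mb of chromosome 1, was mixed: 12 of its 20 rows lay below 0, 9 were called lower and 1 higher, and its upper quartile of 0.18 was the highest of the 36. SYT4's bin at 43 Mb of chromosome 18 had 17 of 21 rows below 0, 9 called lower and 0 higher, and an upper quartile of -0.10. The most accessible row of that bin, peak31531 (chr18:43441015-43441537, intergenic), had 10.5 and 10.4 CPM in controls and 3.56 and 3.62 CPM in shIRF4.

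Among the other genes with at least 8 rows in these bins, most had some rows called lower and few called higher. The same contrast chose the bins, so this lean and the counts per gene, here and above, are descriptions only. Over all rows tested 15.5% were called lower and 7.26% higher, and some genes lay near those shares. LCMT1 had 5 of 12 called lower, FBXW7 (a ubiquitin ligase subunit gene) 3 of 10, NSMCE2 4 of 8, PLXNA2 (a semaphorin receptor gene) 4 of 14, AACS 5 of 10 and TMEM154 5 of 13 with 1 higher. CLN8 had 0 of 8 rows called in either direction and a median of 0.07, with 3 rows below 0, so a member bin can hold a gene with no row called lower. The PLXNA2 body row at chr1:208187346-208188299 had 19.9 and 20.1 CPM in controls and 7.74 and 7.79 CPM in shIRF4 (-1.41 ± 0.12), although the median over PLXNA2 rows was -0.04. The lowest rows here were thus few and steep in some genes and many and shallow in others.

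The bins were chosen by a median over rows of which 1381 of 1449 lie away from promoters, so the values of promoter rows and of the rest are set side by side as a description. A promoter row is one that overlaps a protein-coding promoter window. The 68 promoter rows had a median log2 ratio of 0.05 (shIRF4 1, 0.06; shIRF4 2, 0.02; each against the control mean), and the 1381 rows away from promoters a median of -0.25 (-0.29 and -0.22). In the other bins the medians were 0.08 at 6620 promoter rows and 0.05 at 40029 rows away from them. Of the 68, 11 (16.2%) were called lower and 2 (2.94%) higher. Among the promoter rows in the other bins 3.14% were called lower and 4.52% higher, and among all rows tested 15.5% and 7.26%. The same contrast chose the bins, with these rows in their medians, so nothing is read from these shares. The 11 called lower were at SNAP47, SNAP47 with JMJD4, WNT9A, STK32C, STK32C with LRRC27, ADAM8, FUOM, SPRN, NFATC2, SCARB2 with FAM47E, and DUX4. The 2 called higher were at SCART1 and TMEM154. The calls at SNAP47, WNT9A, STK32C, ADAM8 and SCARB2 with FAM47E held when any 1 library was left out. The others were lost: without control 2 the log2 fold change was -0.25 at SNAP47 with JMJD4, -0.19 at STK32C with LRRC27, -0.19 at FUOM, -0.41 at SPRN, -0.22 at NFATC2, 0.19 at SCART1 and 0.34 at TMEM154, and without shIRF4 1 it was -0.18 at DUX4, none of them called. With DESeq2 the promoter rows of SNAP47, WNT9A and ADAM8 were called lower as well, and that of STK32C was not called (-0.42). With TMM-scaled library sizes the promoter median was 0.01, beside 0.01 over all rows. Within the promoter rows of the top GC quartile the median was -0.03 (28 rows) in the member bins and 0.06 in the other bins, and in the bottom quartile 0.08 (18 rows) and 0.10.

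**Figure D3:**
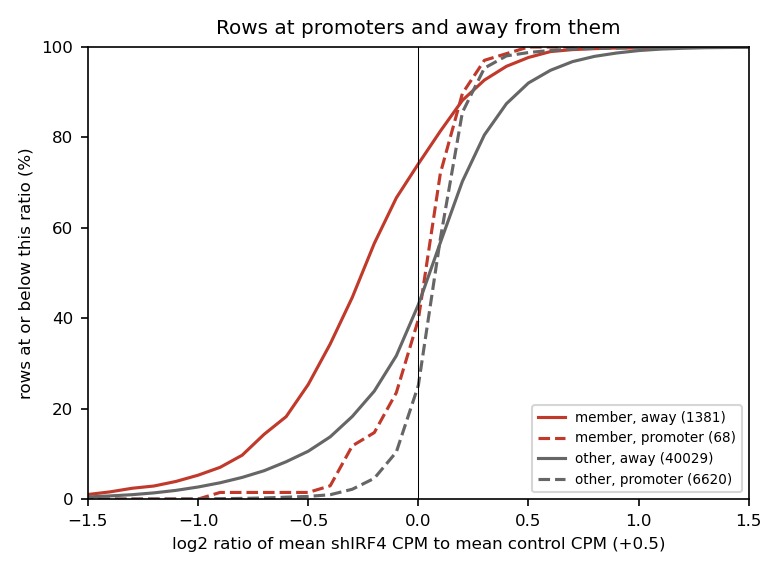
Cumulative share of rows (vertical axis, percent) at or below a log2 ratio of mean shIRF4 CPM to mean control CPM (horizontal axis) for rows at promoters (dashed) and away from them (solid), in the 36 bins (red, member) and the other eligible bins (grey, other), with the number of rows in brackets. The solid red line lies to the left of the other 3 over most of its length; its median is -0.25, and that of the dashed red line 0.05.

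Promoters were few in the 36 bins. This is not independent of the rule, which reads the median over all rows of a bin: promoter rows of the other bins had a median of 0.08 and an upper quartile of 0.15 with few calls, so a bin rich in them is less likely to reach the threshold. Promoter rows made up 4.69% of the member rows and 14.19% of the rows of the other bins. A gene was counted in the bin that holds its midpoint. A member bin held a median of 3 protein-coding genes (quartiles 1 and 5.5), beside 9 in the other bins (5 and 14), and 29.5 on chromosome 19. Rows more than 100 kb from any protein-coding gene made up 27.9% of member rows and 4.81% of the rest. Of these, 177 of 404 were called lower and 8 higher in the member bins, and 407 and 223 of 2244 in the others. Nothing is read from these counts, since the same contrast chose the bins and 38.8% of all member rows were called lower. Of the 36 bins, 11 (30.6%) lay within 5 Mb of the start coordinate or of the last row of their chromosome. This held for 133 of the 1112 others (11.96%) and 11 of 44 (25.0%) on chromosome 19. No protein-coding gene had its midpoint in 2 of the 36 bins (5.56%) and in 6 of the others (0.54%). The bin at 35 Mb of chromosome 21 is among the 2, although RUNX1 reaches into it. The median number of pseudogenes was 4 beside 6. Median row length (550.5 beside 537 bases per bin) and median control level (6.86 beside 6.24 CPM) were close.

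**Figure D4:**
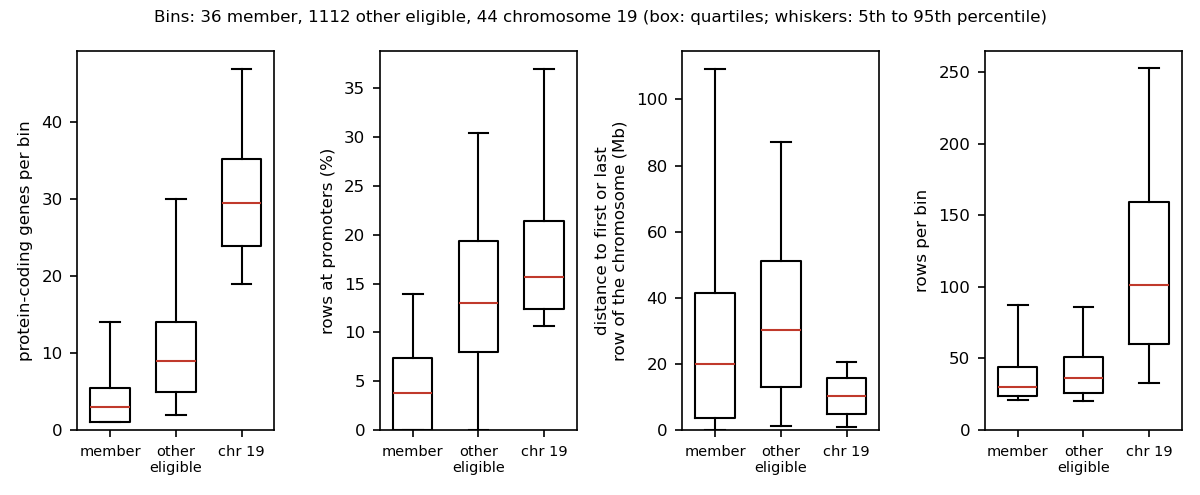
Protein-coding genes per bin (by gene midpoint), percent of rows at promoters, distance to the chromosome's end in Mb, and rows per bin, for 36 member bins, 1112 other eligible bins and 44 chromosome 19 bins. Distance runs to the chromosome's start coordinate, which the axis label gives as the first row, or to its last row. Boxes are quartiles with the median in red and whiskers run from the 5th to the 95th percentile; the member boxes lie lowest for genes (median 3 beside 9) and for promoter rows.

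Bins of few rows have noisier medians, and the number of rows moved with membership: 18 of the 36 bins held 20 to 30 rows, and 18 would be left if at least 30 were required. The shortest rows were the least low. By row length, from the bottom to the top quartile of all rows, the member medians were -0.05, -0.22, -0.29 and -0.26, and those of the other bins 0.13, 0.06, 0.03 and 0.05. By abundance, from the bottom to the top quartile of mean CPM, the member medians were -0.16, -0.22, -0.31 and -0.23. Those of the other bins were 0.15, 0.04, 0.02 and 0.06. The rule set the member bins apart on these same ratios, so nothing is read from the distance between member and other bins.

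The libraries of a group can be set against each other without the groups. Over member rows the median of control 2 against control 1 was -0.01 and that of shIRF4 2 against shIRF4 1 was 0.02, while shIRF4 1 and shIRF4 2 lay at -0.27 and -0.20 against the control mean. In 25 of the 36 bins both shIRF4 libraries were at or below -0.15 against the control mean. Both ratios share that mean, and the same libraries also chose the bins. When bins were chosen from control 1 and shIRF4 1 alone, 38 met the threshold, and in control 2 and shIRF4 2, which had no part in that choice, 24 of them (63.2%) met it too, beside 3.51% of the 1110 others. In the other order 63 bins were chosen, of which 24 (38.1%) met it, beside 1.29% of the 1085 others. These 24 bins are the same set, chosen in both pairs, and 22 of them are among the 36. The split uses other libraries of the same 2 groups, which are not known to come from separate cultures. It describes how far a bin repeats between these libraries, carries no p, and is not a test of the bins.

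**Figure D5:**
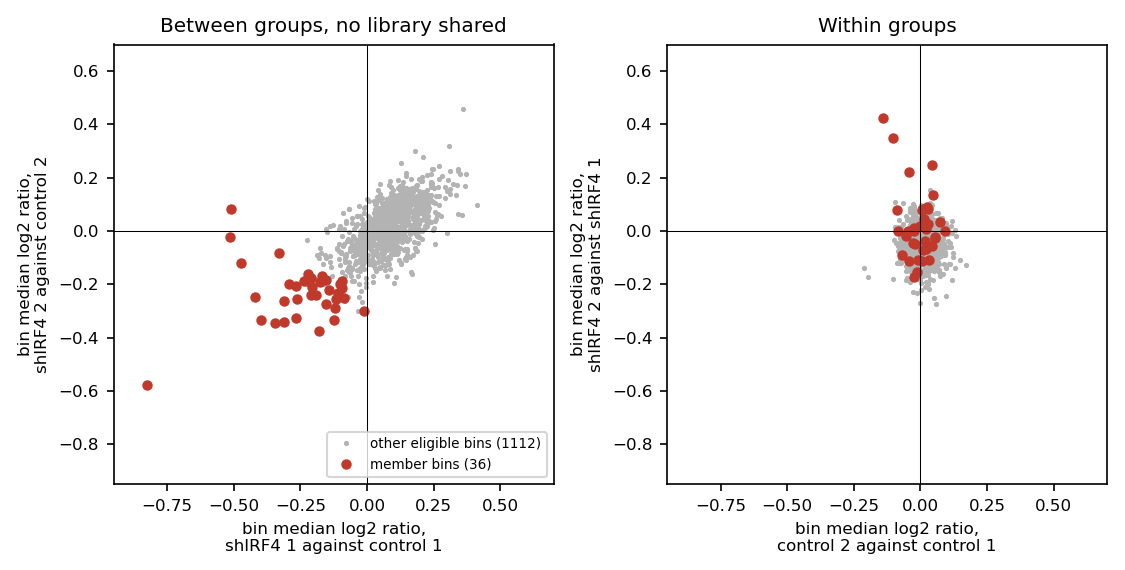
Bin medians of the log2 ratio for pairs of libraries, 36 member bins in red and 1112 other eligible bins in grey. On the left, shIRF4 1 against control 1 (horizontal) and shIRF4 2 against control 2 (vertical) share no library; on the right, control 2 against control 1 and shIRF4 2 against shIRF4 1 show the spread within groups, where 4 red points lie above 0.2.

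In 4 bins, singled out after their values were seen, the shIRF4 libraries differed from each other by more than 0.2. They lie at 143 Mb of chromosome 1 and 60 Mb of chromosome 9, both beside the heterochromatic blocks next to those centromeres, at 190 Mb of chromosome 4, and at 85 Mb of chromosome 8. RefSeq lists 10 genes and pseudogenes named DUX4 or DUX4L in the chromosome 4 bin and 11 REXO1L pseudogenes in the chromosome 8 bin, families of tandem copies. Their 216 rows had medians of -0.45 in shIRF4 1 and -0.11 in shIRF4 2 against the control mean, and -0.07 in control 2 against control 1. The chromosome 1 bin had 0.02 in shIRF4 2, so there only 1 shIRF4 library was low, and its controls differed by -0.14. shIRF4 1 was the deepest library and shIRF4 2 the shallowest. The part of depth and of reads shared among copies was not tested. Without the 4 bins the member rows had a median of -0.23, with -0.22 in shIRF4 1 and -0.24 in shIRF4 2, and 474 rows called lower and 25 higher.

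FRG2 and DUX4, genes of the chromosome 4 end studied in facioscapulohumeral muscular dystrophy, have near-identical copies at the end of chromosome 10, where FRG2B and 14 DUX4L pseudogenes lie in the member bin at 133 Mb. Counts of these rows may be split between the copies and are uncertain. FRG2 rows were called lower in 13 of 19 and FRG2B rows in 8 of 11. The most accessible row of the chromosome 4 run, at DUX4 (chr4:190176275-190180241), had 164 and 165 CPM in controls, 125 CPM in shIRF4 1 and 156 CPM in shIRF4 2. The DUX4 promoter row had 24.2, 25.4, 14.7 and 22.3 CPM, and its log2 fold change of -0.54 became -0.18, no longer called, without shIRF4 1. The change at the DUX4 body row likewise went from -0.29 to -0.10 and lost its call. None of the listed DUX4 copies lies in the adjoining bin at 189 Mb, and its shIRF4 medians of -0.32 and -0.27 were closer to each other. There an intergenic row, peak55435 (chr4:189215572-189216158), had 16.6, 15.1, 5.51 and 4.72 CPM (-1.64 ± 0.14).

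Of 8 lists of genes with known roles in B cells, IRF4 function, chromatin or housekeeping, only IRF4, TNFAIP3 and TFRC held rows in the 36 bins. Over the whole genome the rows of B cell identity genes numbered 243, of which 58 were called lower and 23 higher. Rows of the 12 genes of IRF4 and its partner factors were lower in 20 and higher in 8 of 119, and those of NF-kB targets in 23 and 15 of 134. Plasma cell genes had 20 lower and 3 higher of 79 rows, genes of BCR and MYD88 signalling 33 and 19 of 174, histone acetylation genes 11 and 13 of 76, and housekeeping genes 5 and 3 of 51. The genes of chromatin folding and the nuclear lamina, such as CTCF and the cohesin subunits, had 10 lower and 9 higher rows of 102. The shares called lower over the whole table, 15.5%, and higher, 7.26%, are the ones to read these against.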

How the data were processed

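The deposited tables give, for each of 4 ATAC-seq libraries, the authors' raw counts in a common set of merged peaks. They were made with featureCounts 2.0.0 per the file headers, with each read reduced to its 5′ end and reads marked as duplicates ignored. Fractions of multi-mapping reads were requested, yet the files held 0 rows with counts that were not whole. Coordinates are on hg38, per the submitters' processing notes. Which aligner and peak caller were used, and whether cut sites were shifted, is not given in the sources used here. Counting duplicates once limits short, densely read rows more in a deeper library.

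The member bins and the gene lists were chosen with earlier results of these data known. Ratios used CPM by file totals with 0.5 added. Counts were also fitted in R 4.3.3 with edgeR 4.0.16, which loads limma 3.58.1 (filterByExpr, TMM, quasi-likelihood F-test, two-sided, group as the only term, Benjamini-Hochberg over 73028 rows), and standard errors are the absolute log2 fold change over the root of the F statistic. The fit was also run on simulated counts with the same dispersion for every row and few changed rows, a simpler setting than these data. No support for the calls is drawn from that run. Alternatives included DESeq2 1.42.0, other scalings, bin settings, a replicate block and leaving out each library. Rows were assigned to RefSeq protein-coding genes (GRCh38.p14) by position, within 100 kb, and called promoter rows when they overlapped a window of 250 bases before to 50 after a gene start. Centromere limits were typed in from the hg38 cytogenetic bands. Rows named are those of the runs and of the 10 lowest units (the most accessible row and the called rows with the largest fall and rise), the row of smallest p for each protein-coding gene with at least 8 rows, and the listed genes. Added after values were seen were the called promoter rows, those of IRF4, DUSP22, TNFAIP3, TCF4, NFATC2 and MKI67, the rows over microRNAs, and rows peak41320, peak41329, peak41340, peak31863, peak31873, peak46332 and peak46339. Per-library depth is given with the samples; counting error is smallest for the most accessible rows.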

Additional observations from a re-analysis of the deposited data

How the results depend on the processing

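Against 36 bins, 66 met the rule with TMM-scaled library sizes (which move the median of all rows from 0.05 to 0.01), 79 with at least 10 rows per bin, 18 with at least 30, 70 at a median of at most -0.10, 88 by the ratio of summed counts (33 of the 36 among them), 18 with rows at or above the median CPM only (12 of the 36 among them), and 63 from control 2 and shIRF4 2 alone (32 of the 36). Leaving out each library in turn gave 37 to 61 bins, the highest without shIRF4 1, and 29 to 35 of the 36 remained, fewest without shIRF4 2. Pseudocounts of 0.1 and 2, bins shifted by 0.5 Mb, a threshold of -0.20, and control 1 with shIRF4 1 alone (26 of the 36 among them) gave 26 to 39. The median over the fixed member rows, a sign that their choice from these libraries largely sets, lay between -0.28 and -0.20 under all alternatives run, and between -0.27 and -0.20 with 1 library left out. DESeq2 called 4570 rows in all (3714 lower, 856 higher) against 16639 by edgeR, and 222 member rows (216 lower, 6 higher) against 590. Leaving out 1 library gave 9043 to 20033 rows in all and 347 to 675 member rows, the lowest without shIRF4 1. With library totals only, the share of lower among called rows went from 68.1% to 58.0% over all rows (9926 lower, 7181 higher) and from 95.3% to 92.1% in the member bins. A replicate block called 16612 rows in all and 604 member rows; the numbers are not known to pair the libraries, and their deviations did not move together over 73028 rows (r = -0.03). Of the 84 named rows 68 were called, 46 with DESeq2, 67 with the block and 58 to 69 with 1 library left out. Of the 16 not called, 6 changed sign under some alternative, among them peak45430 at NFATC2 (-0.11, and 0.29 without control 2) and the IRF4 promoter row (-0.05, and 0.00 with library totals); no called row did. The set without the 4 bins in which the shIRF4 libraries differed was chosen after seeing the data (499 member rows called). With 2 libraries a group, no outlier could be judged.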
